A study of Mus musculus with 12 samples.

Results

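The microRNAs described here are the 4 mature products of 2 hairpins that lie inside imprinted genes, miR-335-5p and miR-335-3p of Mest and miR-675-5p and miR-675-3p of H19. They were chosen by name out of 616 listed mature microRNAs, with their levels in all 12 libraries already known, so those levels are a description and carry no test. The libraries hold small RNA of CD1 mouse embryonic gonads. Primordial germ cells (PGCs, the precursors of eggs and sperm) and gonadal somatic cells (SC, the other cells of the gonad) were taken from female and from male embryos on embryonic day 11.5, 12.5 or 13.5 (E11.5, E12.5, E13.5), and every combination was sequenced as 1 library. All embryos were CD1 with no added allele or treatment, each fraction was pooled from groups of about 80 gonads freed of mesonephros, and PGCs were those held by anti-CD15 beads, with a stated enrichment of 93 to 96% against a purity of over 90% for SC.

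An imprinted gene is read from 1 parental allele, according to DNA methylation set in the parent's germ line. Mest, also called Peg1, is expressed from the paternal allele, and its intron carries miR-335; H19 is a long noncoding RNA expressed from the maternal allele, and its first exon carries miR-675, which is known to restrain growth of the mouse placenta. In mouse PGCs these methylation marks are erased while the cells settle in the gonad, whereas the somatic cells around them keep theirs. A hairpin is cut into a 5p and a 3p arm, of which either may be kept as the mature microRNA. The reads do not show the allele of origin.

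The mature sequences are printed because the 4 members are told apart by them alone, and because each arm has a seed of its own (bases 2 to 8, in capitals), the part of a microRNA that pairs with its targets. They are the RefSeq sequences for build GRCm38.p6, and no other mature microRNA in that table shares any of these seeds (0 for each).
miR-335-5p: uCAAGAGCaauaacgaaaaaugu
miR-335-3p: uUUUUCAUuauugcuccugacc
miR-675-5p: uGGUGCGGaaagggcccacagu
miR-675-3p: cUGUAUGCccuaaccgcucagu
The arms of miR-335 have 30.4% G and C in the 5p arm and 36.4% in the 3p arm, against 63.6% and 54.5% in the 5p and 3p arms of miR-675. The hairpins are shown with both arms in capitals, 5′ to 3′, to place the arms that the arm comparison below sets against each other.
Mir335: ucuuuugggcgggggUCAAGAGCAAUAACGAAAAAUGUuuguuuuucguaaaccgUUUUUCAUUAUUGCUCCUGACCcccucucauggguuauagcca
Mir675: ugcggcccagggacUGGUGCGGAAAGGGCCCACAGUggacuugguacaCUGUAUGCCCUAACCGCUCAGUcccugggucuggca

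The miR-335 hairpin of 98 nt is at chr6:30741299-30741396 on the plus strand of GRCm38.p6, inside Mest at chr6:30733506-30748466. Its 5p arm is at chr6:30741314-30741336 and its 3p arm at chr6:30741354-30741375. In the GENCODE annotation, read on its own build, the hairpin was intronic in 21 of 21 Mest transcripts that span it. The miR-675 hairpin of 84 nt is at chr7:142577064-142577147 on the minus strand, inside H19 at chr7:142575530-142578146, with the 5p arm at chr7:142577112-142577133 and the 3p arm at chr7:142577078-142577099. It was exonic in 16 of 19 spanning H19 transcripts, and in 13 of these it lay in the first exon.

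The libraries held from 166804 to 1768825 microRNA reads, and the shallowest were PGC female E12.5 and PGC male E12.5. The deposited values are read counts divided by a size factor that was 1.08 to 1.58 in PGC libraries and 0.614 to 1.15 in SC libraries, with the largest factor in the shallowest library. The deposited values thus do not level depth, and they sum to between 105730 and 2158040 per library. Levels are given first as reads per 1e+06 microRNA reads of the library (RPM), which sets all totals equal, with deposited values beside the main comparisons. No deposited value stands for 1 to 4 reads, so 0 means under 5 reads, or under 2.83 to 29.98 RPM by library. Brackets hold 95% intervals for counting error only. In bulk samples fewer cells of a type and less RNA per cell cannot be told apart. One library stood apart from its label. The summed level of 14 germ cell microRNAs (the miR-290 cluster) was 2348 RPM in PGC female E11.5, against 71284 to 143011 RPM in the other 5 PGC libraries and 244 to 6036 RPM in SC libraries. For miR-335, PGC means and mean PGC minus SC differences are also given without PGC female E11.5, as are the counts of calls over all other imprinted microRNAs. Female PGC ratios to E11.5 all rest on it, and the male ratios beside them do not use it. PGC male E11.5 also held more of the somatic microRNAs described below, 66490 RPM against 10789 to 34567 RPM in later PGC libraries. The part of this in the male ratios was not tested.

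miR-335-5p is the arm reported to restrain metastasis of human breast cancer cells. It was abundant in SC at every stage and in both libraries labelled PGC of E11.5, and low in the later PGCs. Of these, PGC female E11.5 is the library that stood apart from its label. miR-335-5p stood at 6276, 378 and 1392 RPM in female PGCs and at 4244, 657 and 627 RPM in male PGCs of E11.5, E12.5 and E13.5. In SC it stood at 5689, 5663 and 6098 RPM in females and at 3841, 4695 and 8769.8 RPM in males of the same days. The 4 PGC libraries of E12.5 and E13.5 lay below all 6 SC libraries, while both E11.5 PGC libraries lay inside the SC range. The PGC values of E12.5 rest on 63 reads in the female and 121 reads in the male library, so their intervals are wide at 290.2 to 483.2 RPM and 545 to 785 RPM.

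In order of level, miR-335-5p was highest in SC male E13.5, followed by PGC female E11.5 at 6276 RPM and SC female E13.5 at 6098 RPM, whose intervals overlapped. SC female E11.5 at 5689 RPM and SC female E12.5 at 5663 RPM also overlapped, as did PGC male E12.5 at 657 RPM and PGC male E13.5 at 627 RPM. The other neighbours in the order were separate within counting error. Even in its lowest library, PGC female E12.5, miR-335-5p ranked 167th of the 616 listed microRNAs, against 30th in SC male E13.5.

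**Figure D1:**
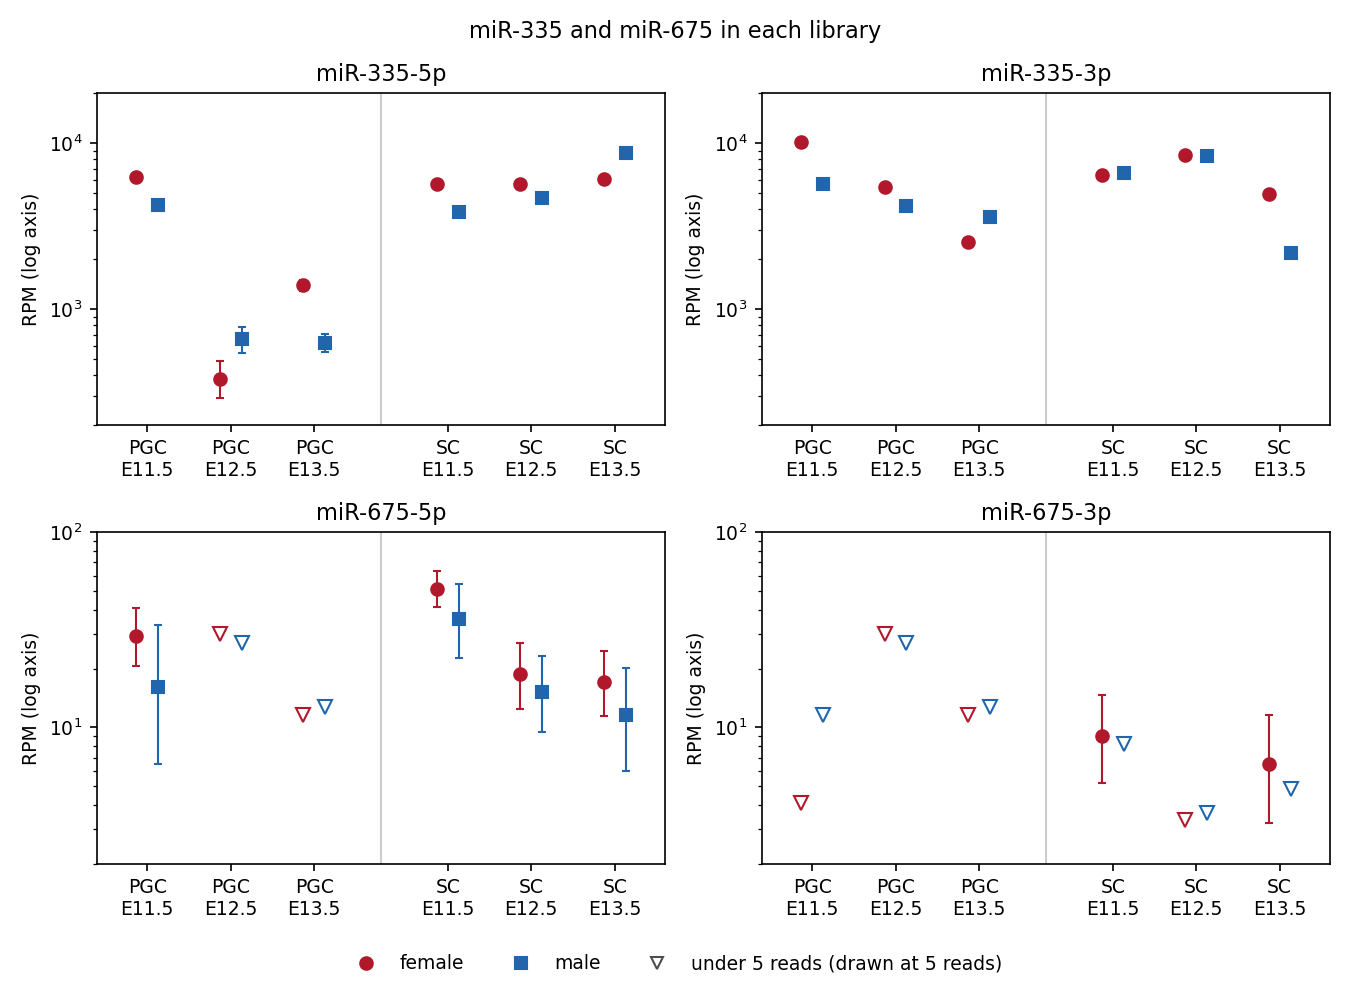
RPM (log axis) of each member in each library by cell type and embryonic day, female as circles and male as squares, with 95% counting intervals; open triangles mark libraries with under 5 reads, drawn at the level of 5 reads. miR-335-5p separates the cell types after E11.5, with PGC libraries from 378 to 1392 RPM and SC libraries from 4695 RPM upwards, while miR-335-3p overlaps between cell types and miR-675 lies near the limit of detection.

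Pair by pair, PGC over SC of the same stage and sex, miR-335-5p was near parity at E11.5 and far lower in PGCs on both later days. At E11.5 the ratio was 1.103 in females (1.07 to 1.14), which rests on PGC female E11.5, and 1.105 in males (1.04 to 1.17). At E12.5 it was 0.0667 in females (0.0512 to 0.0854) and 0.140 in males (0.116 to 0.167). At E13.5 it was 0.228 in females (0.210 to 0.248) and 0.0715 in males (0.0627 to 0.0812), so miR-335-5p was 15.0-fold lower in PGCs in the female E12.5 pair and 14.0-fold lower in the male E13.5 pair. The mean was 2262 ± 2433 RPM over the 6 PGC libraries and 5793 ± 1673 RPM over the 6 SC libraries (SD, over libraries of different stage and sex), or 1459.6 ± 1602 RPM in the 5 PGC libraries without PGC female E11.5.

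On the deposited scale miR-335-5p had values of 5634, 39.9 and 542 in female PGCs and 1569, 96.8 and 227 in male PGCs of E11.5, E12.5 and E13.5, against 12277, 8596 and 8970.2 in female SC and 2671, 6492 and 14828 in male SC. It was lower in PGCs in 6 of 6 pairs there, against 4 of 6 pairs by RPM. The mean log2 difference, PGC minus SC on log2(value + 1), was -4.29 ± 2.84 on the deposited scale and -2.06 ± 1.83 by RPM (SD over 6 pairs), or -4.92 and -2.51 without the female E11.5 pair. Across the whole table, a limma fit with the pair as a block called 77.2% of 513 tested microRNAs lower in PGCs and 7.02% higher from deposited values, against 25.5% lower and 13.5% higher by RPM. A lower deposited value in PGCs was thus the common case and not a feature of these members.

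miR-335-3p, the partner arm from the same hairpin, did not separate the cell types by RPM. It stood at 10233, 5426 and 2524 RPM in female PGCs and at 5649, 4170.0 and 3584 RPM in male PGCs of E11.5, E12.5 and E13.5. In SC it stood at 6461, 8489.9 and 4929.7 RPM in females and at 6654, 8379 and 2188 RPM in males. The highest value of all was in a PGC library, PGC female E11.5, and the lowest in a SC library, SC male E13.5, so the ranges overlapped almost throughout.

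The PGC to SC ratio of miR-335-3p was 1.58 in females and 0.849 in males at E11.5, 0.639 and 0.498 in females and males at E12.5, and 0.512 in females but 1.64 in males at E13.5. It was below 1 in 4 of 6 pairs, as for the 5p arm, but not in the same 4 pairs. The mean over 6 libraries was 5264 ± 2698 RPM for PGCs and 6184 ± 2366 RPM for SC (SD), or 4271 ± 1300.5 RPM in the 5 PGC libraries without PGC female E11.5. By RPM the mean log2 difference was -0.25 ± 0.77, smaller than the spread between pairs, or -0.43 ± 0.71 without the female E11.5 pair. As deposited values, miR-335-3p had 9187, 574 and 982 in female PGCs and 2088, 615 and 1296 in male PGCs of E11.5, E12.5 and E13.5, against 13943, 12886 and 7251 in female SC and 4626, 11587 and 3699 in male SC. There it was lower in PGCs in 6 of 6 pairs, with the 4 later PGC libraries below all SC libraries and a mean log2 difference of -2.48 ± 1.64, so its separation depends on the scale. In order of level, SC female E12.5 and SC male E12.5 overlapped within counting error, as did SC male E11.5 with SC female E11.5 and PGC male E11.5 with PGC female E12.5.

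Both arms come from 1 transcript, and their sum differed between the cell types by nearly the same ratio in all later pairs. The sum was 16509, 5803 and 3916 RPM in female PGCs and 9893, 4827 and 4211 RPM in male PGCs of E11.5, E12.5 and E13.5. In SC it was 12149.9, 14153 and 11028 RPM in females and 10495, 13074.5 and 10957 RPM in males. The 4 later PGC libraries lay at 3916 to 5803 RPM, below every SC library. The PGC to SC ratio of the sum was 1.36 in females and 0.943 in males at E11.5, and then stayed between 0.355 and 0.410 in the 4 pairs of E12.5 and E13.5. Its mean over 6 libraries was 7527 ± 4911 RPM for PGCs, against 11976 ± 1422 RPM for SC (SD), or 5730.2 ± 2437 RPM for the 5 PGC libraries without PGC female E11.5.

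**Figure D2:**
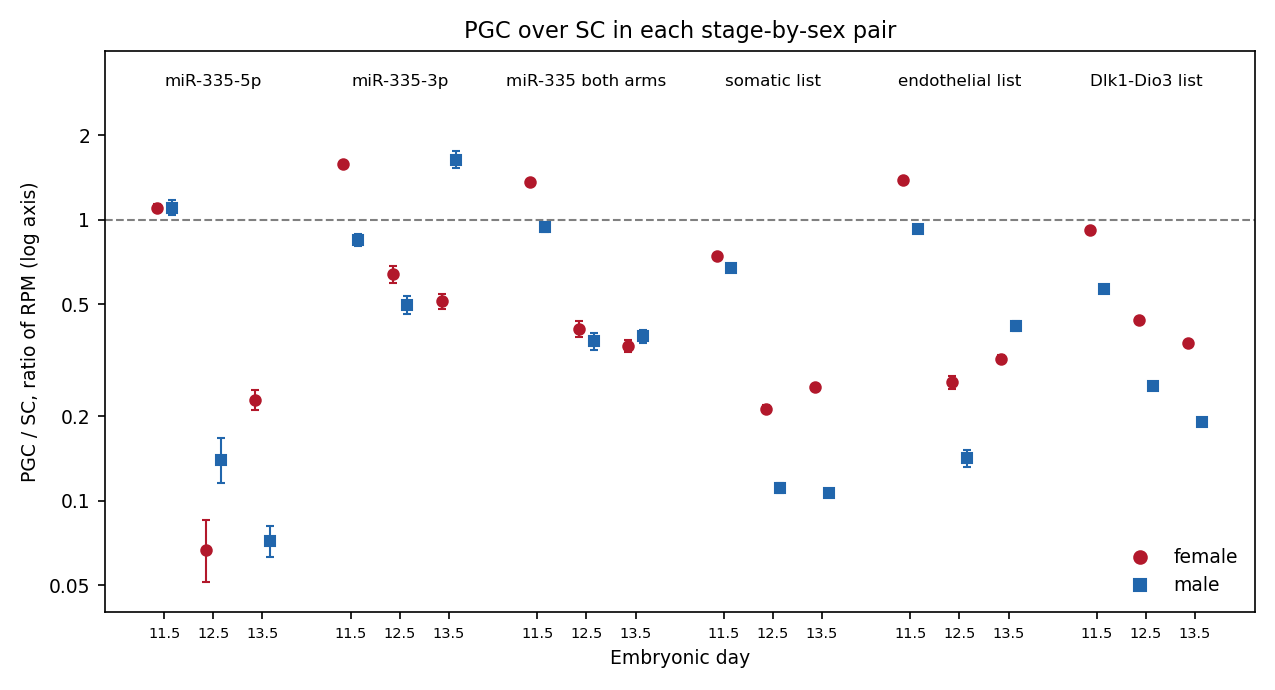
Ratio of RPM in PGCs over SC (log axis) in each stage-by-sex pair, by embryonic day, for both miR-335 arms, their sum and the summed levels of 3 marker or locus lists, with 95% counting intervals. The sum of the arms sits between 0.355 and 0.410 at E12.5 and E13.5 in both sexes, while the 5p arm alone goes down to 0.0667; the somatic, endothelial and Dlk1-Dio3 lists are also nearest to 1 at E11.5.

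Markers of other cells differed between the fractions as well, in directions of their own. The summed level of 12 somatic microRNAs (miR-199a, miR-214, miR-143 and others) was 10789 to 97519 RPM in PGCs against 99071 to 135738 RPM in SC, with 11 or 12 of the 12 listed in each PGC library. Its PGC to SC ratio was 0.744, 0.213 and 0.255 in the female pairs and 0.671, 0.111 and 0.106 in the male pairs of E11.5, E12.5 and E13.5. The endothelial microRNA miR-126a (both arms) was at 4669.5 to 51442 RPM in PGCs against 16087.5 to 37105 RPM in SC, with ratios of 1.39, 0.264 and 0.320 in the female pairs and 0.925, 0.141 and 0.420 in the male pairs of the same days. The liver microRNA miR-122 stood at 4287 RPM in PGC female E11.5 and 2015 RPM in PGC male E11.5, and at 0 in PGC female E12.5 and both E13.5 PGC libraries, against 0 to 3032 RPM in SC. The muscle list of 3 was at 1229 RPM in PGC female E11.5 and 912.6 RPM in PGC male E11.5. It was at 55.8 RPM in PGC female E13.5, and at 0 in both E12.5 PGC libraries and in PGC male E13.5. In SC it was at 131 to 1498 RPM. The erythroid list was at 32.6 to 1669.7 RPM in PGCs against 299.4 to 2206 RPM in SC. The neural list was at 2265 to 5754 RPM in PGCs against 964 to 4112 RPM in SC. Only 2 of its 6 members were listed in every PGC library, so its sum there rests on 2 members. SC female E11.5 listed all 6, SC male E11.5 listed 2 and each later SC library 3. The sum was higher in PGCs in 5 of 6 pairs, with ratios of 0.551, 1.86 and 5.13 in the female pairs and 1.80, 3.13 and 4.93 in the male pairs of E11.5, E12.5 and E13.5. The part of such cells in the miR-335 levels was not tested.

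The arms of miR-335 were used unequally, and the balance differed between libraries. The 5p arm, of 23 nt against 22 nt for the 3p arm, made up 38.0%, 6.51% and 35.5% of miR-335 reads in female PGCs and 42.9%, 13.6% and 14.9% in male PGCs of E11.5, E12.5 and E13.5. In SC it made up 46.8%, 40.0% and 55.3% in females and 36.6%, 35.9% and 80.0% in males. The 3 lowest shares were in PGC libraries of E12.5 and E13.5, and the only shares above 50% were in SC of E13.5. The mean share was 25.2 ± 15.3% over the 6 PGC libraries and 49.1 ± 16.8% over the 6 SC libraries (SD), or 22.7 ± 15.6% in the 5 PGC libraries without PGC female E11.5.

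As a log2 ratio of 5p over 3p reads, the balance averaged -1.83 ± 1.37 over the 6 PGC libraries and -0.01 ± 1.08 over the 6 SC libraries (SD). The difference, PGC minus SC, was -0.52, -3.26 and -1.17 in the female pairs and 0.38, -1.83 and -4.52 in the male pairs of E11.5, E12.5 and E13.5. It was below 0 in 5 of 6 pairs, with a mean of -1.82 ± 1.81, about as large as its own spread. The size thus depended on the pair, and male E11.5 went the other way. The mean was -1.28 without the male E13.5 pair and -2.08 without the female E11.5 pair, and the PGC mean was -2.06 ± 1.41 without PGC female E11.5.

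**Figure D3:**
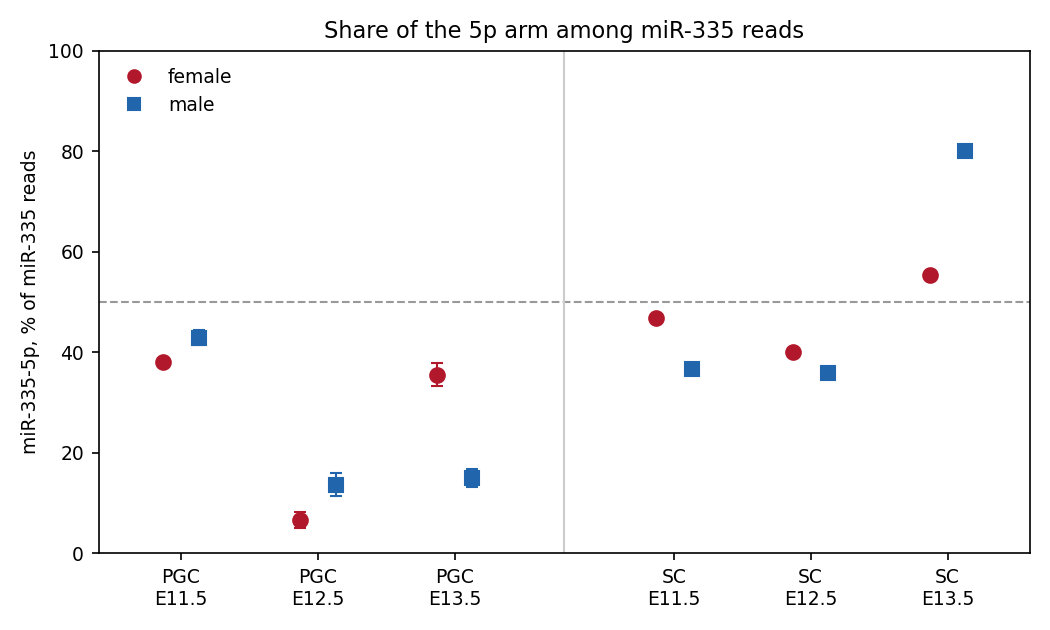
Share of the 5p arm among all miR-335 reads (percent, axis from 0 to 100) in each library by cell type and embryonic day, with 95% Clopper-Pearson intervals; the dashed line is at 50%. PGC libraries lie at 6.51 to 42.9%, and SC libraries at 35.9 to 55.3% except SC male E13.5 at 80.0%.

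The arm balance was set beside that of other hairpins. Of 196 hairpins with both arms listed, 59 had both arms in all 12 libraries, and over these the median difference of the log2 5p to 3p ratio, PGC minus SC, was -0.21. It ranged from -1.82 to 1.102, and miR-335 was the lowest of the 59, before miR-30e at -1.48 and miR-30a at -1.24. These means include the male E13.5 pair. Without that pair miR-335 was at -1.28, and the order of the hairpins without it was not computed. In all, 3 hairpins lay below -1 and 1 above 1. Over the 12 libraries miR-335 had a SD of 1.51 on this log2 scale, the fifth highest, against a median of 0.64.

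In SC male E13.5 other hairpins also had a different balance. The log2 5p to 3p ratio was higher in SC male E13.5 than in SC male E12.5 by 2.84 for miR-335, which ranked 4th of the 59, against a median of 0.10. It was higher by 4.37 for miR-30e, 4.31 for miR-30a and 2.89 for miR-340, and for miR-27a it went the other way, at -4.99; these were named after their values were seen. The part of that library in the 80.0% share of miR-335-5p, and in the place of miR-335 among the 59 hairpins, was not tested.

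**Figure D4:**
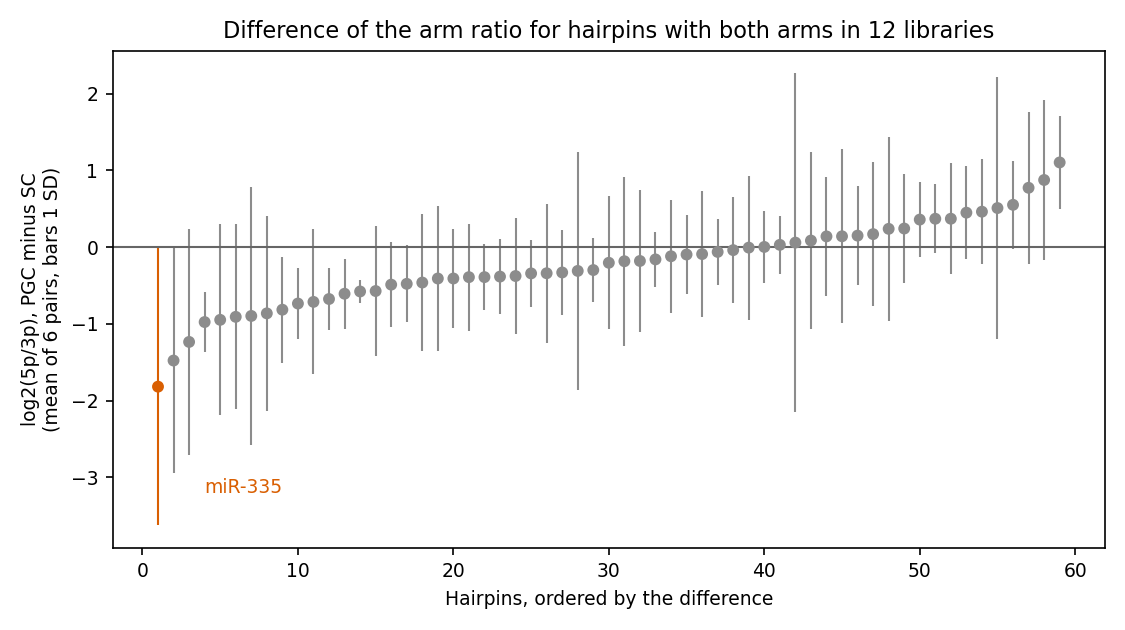
Difference of the log2 ratio of 5p over 3p reads, PGC minus SC, for the 59 hairpins with both arms in all 12 libraries, ordered from low to high; points are means of 6 stage-by-sex pairs and bars 1 SD. With the male E13.5 pair included, miR-335 (orange) has the lowest mean, -1.82, and a bar that reaches about 0, in a set whose median is -0.21.

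Over time the arms of miR-335 had different courses. In PGCs the E13.5 to E11.5 ratio of miR-335-5p was 0.222 in females (0.204 to 0.241) and 0.148 in males (0.129 to 0.169), and the lower level was already present at E12.5, with E12.5 to E11.5 ratios of 0.0602 and 0.155. Between E12.5 and E13.5 the female level was 3.69 times as high (2.84 to 4.86), while the male ratio of 0.955 had an interval that includes 1 (0.765 to 1.20). From deposited values the male ratio was 2.34 and the female one 13.6, so the male reading depends on the scale. In SC the E13.5 to E11.5 ratio of miR-335-5p was 1.07 in females (1.04 to 1.102) and 2.28 in males (2.18 to 2.39).

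For miR-335-3p the E13.5 to E11.5 ratio in PGCs was 0.247 in females and 0.635 in males, so in males it was less reduced than the 5p arm. In SC it was 0.763 in females and 0.329 in males. In male SC the 5p arm was thus higher and the 3p arm lower at E13.5, and their sum was 10957 RPM at E13.5 against 10495 RPM at E11.5. On the deposited scale the SC female ratio of miR-335-5p was 0.731 and the SC male ratio 5.55, so the direction in female SC depends on the scale. As background for these days, the limma fit across the table called, in PGCs of E13.5 against E11.5, 25.1% of microRNAs lower and 7.80% higher from deposited values, and 21.4% lower and 7.41% higher by RPM. In SC it called 2.53% lower and 8.38% higher from deposited values, and 1.36% lower and 6.63% higher by RPM. The median log2 difference over all 513 was -0.99 in PGCs from deposited values and -0.41 by RPM, and in SC -0.01 and -0.34.

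Between the sexes, the arms also differed in direction at E13.5. The female to male ratio of miR-335-5p was 2.22 in PGCs (1.91 to 2.59) and 0.695 in SC (0.676 to 0.715). That of miR-335-3p was 0.704 in PGCs (0.650 to 0.763) and 2.25 in SC (2.15 to 2.36). Each arm was thus higher in the sex where the other was lower, in both cell types. Summed over arms the SC sexes were within counting error at E13.5, with a ratio of 1.01 (0.983 to 1.03). At E12.5 the female to male ratio of miR-335-5p was 0.575 in PGCs and 1.21 in SC, and that of miR-335-3p was 1.30 in PGCs and 1.01 in SC, where the interval of 0.988 to 1.04 includes 1. The PGC ratio of miR-335-3p at E12.5 was 0.933 from deposited values, so its direction depends on the scale. At E11.5 the ratios were 1.48 for miR-335-5p and 1.81 for miR-335-3p in PGCs, which rest on PGC female E11.5, and 1.48 and 0.971 in SC. That SC ratio of miR-335-3p has an interval of 0.937 to 1.007, which includes 1, and was 3.01 from deposited values. With 1 library for each stage and sex none of these ratios has a replicate.

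miR-675-5p, the main product of the H19 hairpin here, was read at a low level in SC and at E11.5 only in PGCs. It had 36 reads (29.5 RPM) in PGC female E11.5 and 7 reads (16.2 RPM) in PGC male E11.5, and under 5 reads in the 4 PGC libraries of E12.5 and E13.5. In SC it had 91, 28 and 29 reads in females and 22, 21 and 12 reads in males of E11.5, E12.5 and E13.5, which is 51.4, 18.8 and 17.1 RPM in females and 36.0, 15.2 and 11.6 RPM in males. All 6 SC libraries thus listed it, against 2 of 6 PGC libraries.

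Depth limits what the later PGC libraries can show for miR-675-5p. At the SC level of the same pair, 3.13 and 2.80 reads would have been expected in PGC female and male E12.5, and 7.37 and 4.53 reads in PGC female and male E13.5, against a floor of 5 reads. The highest of these, in PGC female E13.5, is still close to the floor, and the SC level of that pair, 17.1 RPM (11.5 to 24.6), has an interval that takes in the PGC floor of 11.6 RPM. A difference between PGCs and SC was thus not detectable at this depth in any of these 4 pairs. At E11.5 the PGC to SC ratio was 0.573 in females (0.378 to 0.852) and 0.449 in males (0.162 to 1.09), so only the female interval excludes 1, and that ratio rests on PGC female E11.5.

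Within SC, miR-675-5p was lower at E13.5 than at E11.5. The E13.5 to E11.5 ratio was 0.333 in females (0.211 to 0.511) and 0.321 in males (0.145 to 0.677), and the E12.5 to E11.5 ratios were 0.365 and 0.423. Both sexes had ratios below 1, also on the deposited scale (0.227 in females and 0.781 in males), and between E12.5 and E13.5 the intervals overlapped. In PGCs the female level at E11.5, 29.5 RPM (20.6 to 40.8), lay above the E13.5 floor of 11.6 RPM, which rests on PGC female E11.5. The male level at E11.5, 16.2 RPM (6.50 to 33.3), has an interval that includes the E13.5 floor of 12.7 RPM, so a difference was not detectable. In order of level, each of the 8 libraries with reads overlapped its neighbour within counting error.

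miR-675-3p, the other arm of the H19 hairpin, was listed in 2 of 12 libraries, both female SC. It had 16 reads (9.05 RPM) in SC female E11.5 and 11 reads (6.50 RPM) in SC female E13.5, and under 5 reads elsewhere, including all 6 PGC libraries. In the 2 libraries with both arms the 5p arm was the more abundant, with 91 against 16 reads at E11.5 and 29 against 11 reads at E13.5. Its mean deposited value was below the minimum of 5 used in the fits across the table, a minimum that the other 3 members passed.

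The levels of the members over the 12 libraries were also compared with those of other microRNAs, as the Pearson r of log2(RPM + 1) over 12 libraries among 330 microRNAs. The libraries fall into cell types, so r takes in that difference, and it is a description. miR-335-5p was most like miR-379-5p (r = 0.98), miR-376b-3p (0.97) and miR-322-5p (0.97). With its own partner arm miR-335-3p it had r = 0.29. miR-335-3p was most like miR-7b-5p (0.87), miR-181a-1-3p (0.86) and miR-323-3p (0.84). miR-675-5p was most like miR-380-5p (0.98), miR-411-5p (0.98) and miR-370-5p (0.97), with 4 of its 12 values at 0, all in later PGC libraries, so that r rests in part on the read floor. For miR-675-3p, with 10 values at 0, no microRNA exceeded r = 0.53, that of miR-181c-5p, followed by miR-148b-3p (0.52) and miR-381-3p (0.50). Of these 12 named microRNAs, 7 belong to the imprinted Dlk1-Dio3 list, which made up 61 of the 330 compared (18.5%).

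MicroRNAs of other imprinted loci were counted in the limma fits, with p-values adjusted by Benjamini-Hochberg over all 513 tested microRNAs and a threshold of 0.05. Because no condition has a repeat, a p-value here reflects only how these libraries vary. The lists were the maternally expressed Dlk1-Dio3 cluster, the paternally expressed Sfmbt2 cluster (whose families also have copies elsewhere), miR-296 and miR-298 of the Gnas locus, and miR-483 of an Igf2 intron. Of 111 tested members, 95 were lower and 0 higher in PGCs from deposited values, where 77.2% of all tested were lower, and 0 were higher at an unadjusted p under 0.05. By RPM, 58 were lower and 2 higher, against 25.5% lower and 13.5% higher over all, and without PGC female E11.5 they were 70 and 7, against 160 and 76 of all 513. With voom, limma's test on reads, 23 were lower and 2 higher, against 11.9% lower and 14.6% higher over all. The median log2 difference of these 111 was -3.38 on the deposited scale and -1.52 by RPM, against -2.57 and -0.74 over all 513. None of the 111 was at 0 in all libraries of a cell type, and with such microRNAs among the 513 (8 in PGCs, 1 in SC) at their bound the medians over all were -2.54 and -0.69.

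The imprinted loci differed from each other. In Dlk1-Dio3, 82 of 82 members were lower in PGCs from deposited values, where 77.2% of all 513 tested were. By RPM 57 were lower, where 25.5% of all were. The highest members of Dlk1-Dio3 were miR-541-5p, miR-379-5p and miR-411-5p. miR-379-5p, whose course was most like that of miR-335-5p, stood at 15680.3, 1888 and 3084 RPM in female PGCs and at 10972, 1982 and 1963 RPM in male PGCs of E11.5, E12.5 and E13.5, against 10898 to 15877 RPM in SC. Its log2 difference was -3.98 ± 0.73 (SE, limma adjusted p = 0.000227) on the deposited scale and -1.75 ± 0.43 (adjusted p = 0.0124) by RPM, and without PGC female E11.5 it was -4.54 (adjusted p = 0.00152) and -2.11 (adjusted p = 0.00703). By RPM, miR-541-5p (-1.15, adjusted p = 0.0252) and miR-411-5p (-1.73, adjusted p = 0.00542) were also lower in PGCs by limma.

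Calls of Sfmbt2 members went with the scale. On the deposited scale 9 of 24 were lower in PGCs, where 77.2% of all microRNAs were, and by RPM 0 were lower and 2 higher, where 13.5% of all were higher. The median log2 difference of the 24 was -1.41 on the deposited scale and -0.42 by RPM, against -2.57 and -0.74 over all. By RPM the 3 highest members, named below, lay above the median of their list. When single libraries were left out the count of 9 ranged from 5, PGC female E11.5 being one such case, to 15, which was reached by leaving out either male E11.5 library. It was 1 when both E12.5 PGC libraries were left out. Counts over all tested microRNAs on the deposited scale in these settings are not given here, so these values show only how the count of 9 varied. The highest member, miR-669c-5p, averaged 1292 ± 822 RPM over 6 PGC libraries and 476 ± 125.6 RPM over 6 SC libraries (SD), a log2 difference of 1.26 ± 0.31 (SE, limma adjusted p = 0.0129) by RPM and of -0.97 ± 0.60 (adjusted p = 0.138) on the deposited scale. By RPM, miR-467a-5p and miR-467c-5p had log2 differences of 0.81 (limma adjusted p = 0.0711) and 1.04 (0.0592). Without PGC female E11.5, 5 members were higher by RPM, among them miR-669c-5p (1.41, limma adjusted p = 0.00772), miR-467a-5p (1.04, 0.0168) and miR-467c-5p (1.18, 0.0358). Counts over all tested microRNAs without that library are given above.

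The 3 tested Gnas microRNAs, each higher on average in PGCs by RPM, did not pass the test on that scale with all libraries. Without PGC female E11.5, 2 of 3 passed it as higher, miR-298-5p at 0.96 (limma adjusted p = 0.0167) and miR-296-3p at 1.17 (0.0394). miR-298-5p averaged 5574 ± 1913 RPM over 6 PGC libraries and 3515 ± 1354 RPM over 6 SC libraries (SD), with a log2 difference of 0.68 (limma adjusted p = 0.1001) by RPM and a log2 difference of -1.55 (adjusted p = 0.0263) on the deposited scale. By RPM, miR-296-5p and miR-296-3p had log2 differences of 0.90 (limma adjusted p = 0.0671) and 0.91 (0.0755), and on the deposited scale -1.33 (0.0470) and -1.32 (0.0607). miR-298-3p was too low to be tested and averaged 1.09 RPM over PGC and 0.591 RPM over SC libraries.

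miR-483 is nearest to miR-675 among these, since Igf2 (chr7:142650768-142666816) and H19 are neighbours that share their imprinting control. miR-483-5p stood at 788, 737 and 146 RPM in female PGCs and at 578, 174 and 91.8 RPM in male PGCs of E11.5, E12.5 and E13.5. In SC it stood at 605, 759 and 394 RPM in females and at 2241, 721 and 417 RPM in males. The E13.5 PGC libraries and PGC male E12.5 lay below all SC libraries, and the E11.5 and female E12.5 PGC libraries within their range. The log2 difference, PGC minus SC, was -3.42 ± 0.66 (SE, limma adjusted p = 0.000276) on the deposited scale and -1.21 ± 0.42 (adjusted p = 0.0412) by RPM, and without PGC female E11.5 it was -3.93 (adjusted p = 0.00152) and -1.53 (adjusted p = 0.0167). For miR-483-3p it was -2.67 (limma adjusted p = 0.00121) and by RPM -0.47 (adjusted p = 0.357).

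**Figure D5:**
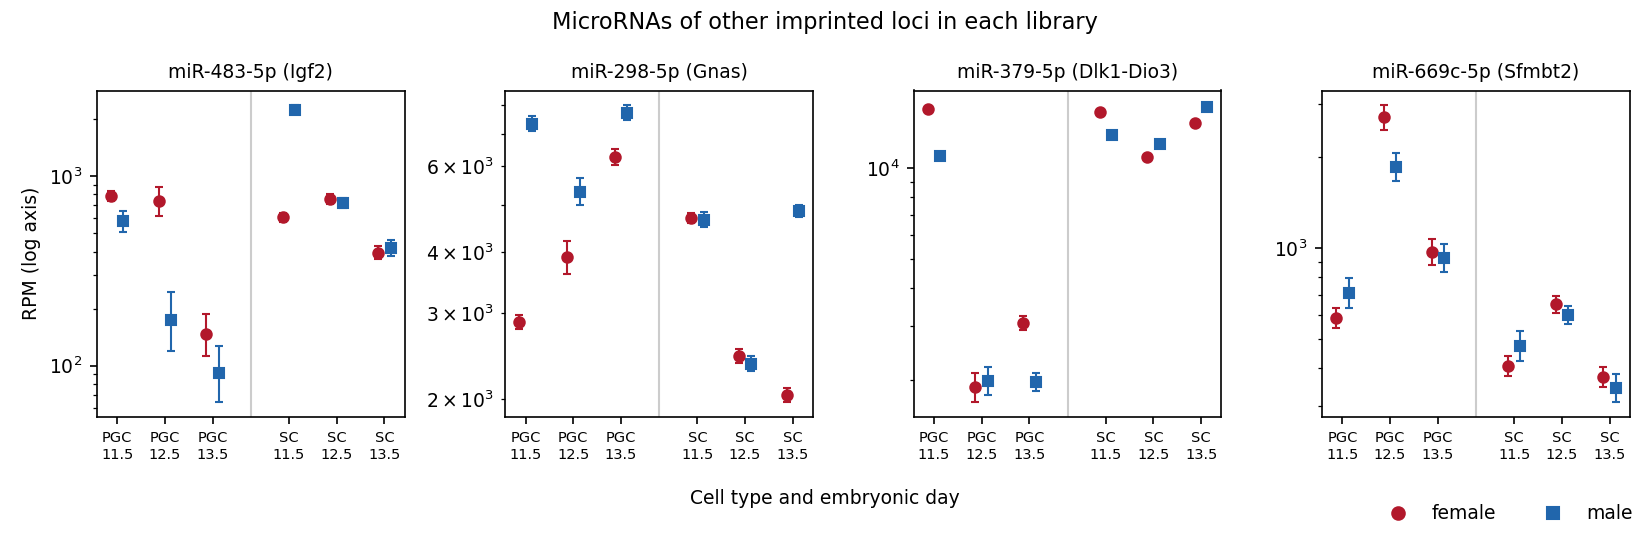
RPM (log axes that differ between panels) of 1 microRNA from each of 4 other imprinted loci in each library, by cell type and embryonic day, female as circles and male as squares, with 95% counting intervals. miR-379-5p is at 10972 RPM or more in both PGC libraries of E11.5 and at 3084 RPM or less in the later ones, miR-483-5p is lowest in PGCs of E13.5, and miR-669c-5p averages 1292 RPM in PGCs against 476 RPM in SC.

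From E11.5 to E13.5 in PGCs, 72 of the 111 other imprinted microRNAs fell and 0 rose by limma on the deposited scale. There 25.1% of all 513 tested fell and 7.80% rose, and 0 of the 111 rose at an unadjusted p under 0.05. By RPM 63 fell and 0 rose, where 21.4% of all fell and 7.41% rose. Of the 72 and 63 that fell, 68 and 60 belonged to Dlk1-Dio3, 2 and 1 to Sfmbt2, and 2 and 2 to miR-483. No Gnas member passed on either scale. miR-483-5p fell by 3.13 ± 0.79 on the log2 scale (SE, limma adjusted p = 0.00190) and by RPM changed by -2.53 (adjusted p = 0.0192). Without PGC female E11.5 this call was lost on both scales, at -2.85 (limma adjusted p = 0.0820) on the deposited scale and -2.99 (adjusted p = 0.0586) by RPM, and on the deposited scale 0 of the 2 miR-483 arms passed without PGC female E13.5. The median log2 change of the 111 on the deposited scale was -2.83 with all libraries, against -0.99 over all 513. Leaving out PGC female E11.5 gave -2.26, against -0.09 over all. Dropping the female PGC library of E13.5 gave -2.84 against -0.81, and dropping the male one gave -2.72 against -1.06. Each such fit left 1 PGC library at the stage concerned. In each, fewer of all 513 fell, and the deposited count of 72 was far lower as well, so it depended on single libraries. By RPM it was 38 without PGC female E11.5 (68 of all 513 fell). With voom 53 fell and 0 rose, against 16.8% lower and 7.02% higher over all. In SC over the same days 0 of the 111 passed on the deposited scale, where 2.53% of all 513 were lower and 8.38% higher. At an unadjusted limma p under 0.05, 4 of the 111 were lower and 1 higher, against 32 and 58 of all 513. By RPM 2 were lower (0 without PGC female E11.5), where 1.36% of all were lower and 6.63% higher. With voom 4 were lower, where 2.34% of all were lower and 5.85% higher.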

How the data were processed

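The deposited values, made by the authors, are a normalized signal: each library's read counts over its own size factor. Per the submitters' processing notes, FastQC, Trim Galore, Bowtie 1.1.2, GRCm38 and DESeq were used; the counting step and annotation release were not given in the sources used here. All values were 0 or whole multiples (100%, tolerance 1e-06) of the smallest value of the library divided by 5, so reads were taken back and 0 was read as under 5 reads. RPM are these reads per 1e+06 of their sum.

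Shares have exact Clopper-Pearson intervals, and ratios exact binomial ones, at 95%. They cover counting error only, since PCR reads carry no molecular identifiers. Fits used log2(value + 1) in limma 3.58.1 (R 4.3.3; empirical Bayes with trend), restricted to the 513 microRNAs averaging at least 5. Cell types were compared with the stage-by-sex pair as a block (5 residual degrees of freedom), and stages with sex and stage as additive terms within each cell type (4 residual degrees of freedom). Whether both fractions of a pair came from the same gonads is not stated. The script was tested on simulated data. Named microRNAs are the members, the 3 most like each among those with a mean deposited value of at least 50, all arms of miR-296, miR-298 and miR-483, and the 3 highest members of Dlk1-Dio3 and Sfmbt2. The members and lists were chosen with earlier results of these data known. Alternatives were RPM, quantile normalization, voom, other pseudocounts, no filter and leaving out each library. Exon and intron positions come from GENCODE and sequences from RefSeq.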

Additional observations from a re-analysis of the deposited data

Results flagged for a closer look

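The results below stand out because both sexes were higher in 1 cell type or stage and both lower in the other; each rests on 1 library per condition, and the difference between them was not tested. Those that use E11.5 rest in part on PGC female E11.5, and the values of the male libraries alone are given beside them. By RPM, miR-335-5p had a mean log2 difference, E13.5 minus E11.5, of -2.46 in PGCs and 0.65 in SC, which differ by -3.11 (-3.95 in males). Seen as PGC minus SC, it was -2.97 at E13.5 and 0.14 at E11.5, again -3.11 apart. At E12.5 it was -3.37, which differs from E11.5 by -3.51 (-2.98 in males). These splits of miR-335-5p held by RPM only. On the deposited scale it was lower in PGCs at E11.5 in both sexes, and its SC female E13.5 to E11.5 ratio was 0.731. For the log2 ratio of the 5p over the 3p arm, E13.5 minus E11.5 was -1.13 in PGCs and 1.64 in SC, which differ by -2.77 (-4.90 in males).

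By RPM, miR-335-3p at E12.5 minus E11.5 was -0.68 in PGCs and 0.36 in SC, which differ by -1.04 (-0.77 in males). The sum of both arms was -1.27 in PGCs and 0.27 in SC, which differ by -1.54 (-1.35 in males). On the deposited scale the SC female E12.5 to E11.5 ratio of miR-335-3p was 0.924, so its split held by RPM only. On the deposited scale miR-335-3p at E13.5 minus E12.5 was 0.93 in PGCs and -1.24 in SC, which differ by 2.16. By RPM it was lower at E13.5 in both cell types and both sexes.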

How the results depend on the processing

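Of 71 alternative values that leave out no single library, over all results, 59 counted as unmoved and 0 changed sign. Unmoved means a shift under 1 SD of that result, over its pairs, sexes or libraries, or a count within 1.5 times. That limit is wide: PGC minus SC of miR-335-5p, -4.29 on the deposited scale and -2.06 by RPM, counted as unmoved. Setting 0 to the smallest value of the library could not move miR-335 results, since neither arm has a 0, and counts cannot change sign. By RPM, PGC minus SC of miR-335-3p was -0.25, against -2.48 on the deposited scale, and the PGC difference of miR-335-5p, E13.5 minus E11.5, -2.46, against -3.08. For miR-675-5p, a pseudocount of 5 or setting 0 to the smallest value of the library gave -2.22 and -2.17 for PGC minus SC, against -3.72, and -1.89 and -1.31 for E13.5 minus E11.5 in PGCs, against -3.79; 4 PGC values are 0. PGC minus SC calls among other imprinted microRNAs were 60 by RPM, 54 after quantile normalization and 25 by voom, against 95; SC stage calls were 2, 6 and 4, against 0. The cause was not tested.

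On the deposited scale, leaving out each library gave -4.99 to -3.60 for PGC minus SC of miR-335-5p, -2.85 to -2.08 for miR-335-3p and -4.09 to -3.49 for miR-675-5p. For E13.5 minus E11.5 in PGCs it gave -3.38 to -2.78, -3.22 to -0.69 and -4.78 to -2.80 in this order of members, and in SC -0.45 to 2.47, -0.94 to -0.32 and -2.10 to -0.34. The SC value of miR-335-5p, 1.01 with both sexes, was below 0 without either male library of E11.5 or E13.5. By RPM that value was 0.65 with both sexes, and the female E13.5 to E11.5 ratio alone was 1.07. The miR-335 log2 arm ratio, with 1 added to both arms, was -2.11 to -1.43 in PGCs, -0.42 to 0.15 in SC (-0.01 with all) and -2.25 to -1.27 for PGC minus SC. Calls were 88 to 100, 4 to 74 and 0 to 3. By RPM and without PGC female E11.5 they were 77, 38 and 0, against 60, 63 and 2.

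The planned edgeR alternatives were not run: the values hold no count of 1 to 4. With too few reads, miR-675-3p has no difference here and miR-675 no arm ratio. Reads of miR-675 under 5 cannot be seen in any library.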
